A study of Mus musculus with 12 samples.

Results

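The regions described here are short autosomal stretches of the mouse genome in which every H3K9me2 ChIP library of a comparison held more reads than the input of the same mouse. They were chosen by the deposited read levels themselves. A region was taken when it was narrower than 1000 bp, when all 4 ChIP libraries of its table held at least 1 RPM (read count scaled to the depth of the library) and at least 2 times the RPM of their own inputs, and when the mean of the 4 inputs was under 0.6 RPM. This gave 141 of 33787 regions in the table of FAD against WT mice and 268 of 43680 in the table of FAD-BIX against FAD mice, at 377 distinct places. At a reciprocal overlap of 50%, 30 of these regions met the rule in both tables. Levels over input were selected on and are given as a description only.

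The series profiled prefrontal cortex of C57BL/6 mice aged 5 to 6 months, with 2 mice a group and 1 ChIP and 1 input library a mouse. WT mice were wild type, FAD mice carried familial Alzheimer's disease mutations, and FAD-BIX mice were FAD mice given BIX01294, a compound that blocks EHMT1 and EHMT2. The sources used here give neither the transgenes and their promoters nor the dose, route or length of treatment. Punched tissue holds all cell types of the cortex, so fewer cells carrying the mark and less of the mark per cell cannot be told apart.

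H3K9me2, dimethylation of lysine 9 of histone H3, is written mainly by the EHMT1/EHMT2 complex of methyltransferases and read by proteins that keep chromatin compact. It typically covers broad domains in gene-poor and silent parts of the genome rather than narrow peaks. In neurons, EHMT1/EHMT2 is known for silencing genes of other lineages and for tuning genes of synaptic function.

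Sequence could be shown for the regions that overlapped a RefSeq promoter window (250 bases before to 50 after a gene start, GRCm38.p6). There were 32851 such windows, and 2 chosen regions overlapped one. Gm39637 is a predicted gene, and Spag17 encodes a protein of the central apparatus of motile cilia. The stretches below are the parts of these 2 regions that lie upstream of the gene starts. They do not stand for the chosen regions as a whole, most of which were centred between genes. The stretches are at chr1:45724479-45724728 (minus strand) and chr3:99885275-99885416 (plus strand), written 5′ to 3′. Capitals mark GAGGG, the reverse complement of CCCTC, a core word of CTCF sites.
Gm39637: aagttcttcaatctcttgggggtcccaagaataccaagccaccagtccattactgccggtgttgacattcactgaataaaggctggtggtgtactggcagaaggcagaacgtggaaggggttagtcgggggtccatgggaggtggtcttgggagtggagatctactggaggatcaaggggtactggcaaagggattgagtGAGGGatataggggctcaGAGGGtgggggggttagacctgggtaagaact
Spag17: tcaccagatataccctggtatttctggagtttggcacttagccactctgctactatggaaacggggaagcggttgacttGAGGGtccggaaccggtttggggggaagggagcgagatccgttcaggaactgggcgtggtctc

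Over the whole windows of 300 bases, Gm39637 had 3 CpG and a GC content of 52%, and Spag17 had 12 CpG and 49.7%. The medians of all windows were 7 CpG and 52.7%. The short words searched, on both strands, were TGCCGC, which occurs in 11.6% of all windows, then CACGTG in 7.15%, TCCCGC in 20%, TGACTCA in 5.2%, TGACGTCA in 1.79%, CCCTC in 66% and TTAGGG in 10.6%. Of these, CCCTC alone occurred in the windows shown, 2 times at Gm39637 and 1 time at Spag17. The Gm39637 region held 1.27 and 1.32 RPM in WT and 1.04 and 2.64 RPM in FAD. At Spag17 the levels were 2.49 and 1.83 RPM in FAD and 1.57 and 1.05 RPM in FAD-BIX. The Spag17 groups did not overlap, but the log2 difference of -0.55 ± 0.48 (SE, edgeR) did not pass the test used for the groups.

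Library totals ranged from 20.45 to 26.58 M reads in ChIP and from 13.92 to 23.76 M in input. The chosen regions held 0.0285% to 0.0433% of the ChIP reads in the first table and 0.0424% to 0.0583% in the second. At Thy1, a neuronal gene whose promoter is often used in transgenes, the highest input level was 188 and 94.4 RPM in FAD-BIX and 179 RPM in FAD 2, but 2.23 RPM in the input labelled FAD 1. The first table held no Thy1 region, so WT inputs could not be set beside these. ChIP levels at heart-muscle marker genes (22 regions in 5 of 12 genes, first table) summed to 11.6 and 9.07 RPM in WT and to 20.7 RPM in FAD 2, but to 67.3 RPM in the library labelled FAD 1. In the second table the sums were 14.9 and 12.1 RPM in FAD-BIX (26 regions in 6 of 12 genes). There they were 71.5 RPM in the library labelled FAD 1 and 21.5 RPM in FAD 2. At neuron markers (10 regions in 3 of 14 genes, first table) the sums were between 4.89 and 8.27 RPM, and the astrocyte, oligodendrocyte and microglia lists had no region. None of the marker regions was among the chosen ones. With these values the FAD 1 libraries differ from the other FAD mouse, and their label or sample may be wrong. They are used below as labelled, so that every FAD value rests on that label, and their part in the levels was not tested beyond leaving them out. Without them, 249 and 578 regions would meet the rule.

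Passing the rule in a single library was most frequent in FAD 2, where 50% of the 33317 autosomal regions under 1000 bp of the first table did so. WT libraries passed at 6.43% and 7.2% of them, and the library labelled FAD 1 at 8.18%. In the second table FAD-BIX passed at 12.1% and 11.2%, FAD 2 at 40.2% and the library labelled FAD 1 at 6.8%. FAD 2 was therefore the library that removed the fewest regions: 38 and 68 regions failed in it alone. In WT ChIP 1 alone 248 regions failed, and in FAD-BIX ChIP 1 alone 340.

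Most chosen regions were wide and only modestly enriched, and a small number were narrow and very dense. The median width was 737 bp in the first table and 687 bp in the second, against 328 and 324 bp over all autosomal regions under 1000 bp. The RPM floor is not set per length, so that wider regions reach it at a lower density. Levels were therefore also divided by width. With a dividing line of 5 RPM per kb, drawn after the values were seen, 17 of 141 and 25 of 268 regions were dense. Lines at 3 and 10 RPM per kb would give 28 and 12 in the first table and 51 and 11 in the second. The other regions had a median density of 2.03 and 2.14 RPM per kb, close to the 1.81 and 1.83 RPM per kb of all regions. The dense ones had a median of 19 and 9.55 RPM per kb and a median width of 311 and 334 bp.

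**Figure D1:**
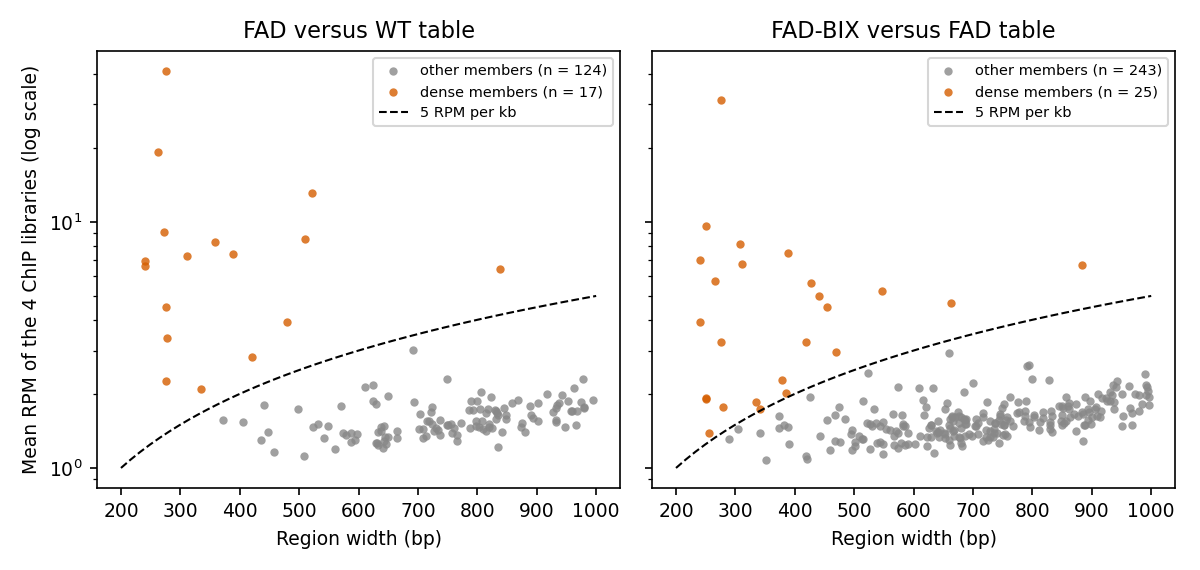
Width of each chosen region (bp) against the mean RPM of its 4 ChIP libraries (log scale), for the 141 regions of the first table and the 268 of the second; the dashed line is 5 RPM per kb. The 17 and 25 dense regions (orange) lie above the line and reach 41.2 RPM, while no other region (grey) exceeds 3.01 RPM.

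The densest region lay between genes on chromosome 2 at 83691201 to 83691476 (coordinates of the files, which match GRCm38). The nearest named protein-coding gene was Zc3h15, whose product binds the translational GTPase DRG1. It held 77.4 and 33.7 RPM in WT, 27.7 and 26 RPM in FAD and 42.1 and 29.1 RPM in FAD-BIX, while the highest of the 6 inputs was 0.51 RPM. Both WT and both FAD-BIX libraries were above both FAD libraries, and FAD-BIX overlapped WT. The lowest of its ratios over input was 79.4, in the library labelled FAD 1. Its ratio of 392 in FAD 2 rests on an input with 0 reads and the 1 read that the authors added.

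Within Gm34181, a predicted gene on chromosome 2 (144338252 to 144338514), the levels were 45.1 and 15.8 RPM in WT and 11.5 and 4.47 RPM in FAD. Again both WT values lay above both FAD values. A region within the RefSeq span of Pde4d, a cAMP phosphodiesterase (chromosome 13, 108783582 to 108784104), held 34.7 and 7.19 RPM in WT, 8.54 and 1.97 RPM in FAD, and 7.09 and 5.18 RPM in FAD-BIX. There the groups overlapped, since WT 2 was below the library labelled FAD 1. An intron of Mrc2, an endocytic collagen receptor (chromosome 11, 105319783 to 105320262), held 9.23 and 2.93 RPM in WT and 2.29 and 1.2 RPM in FAD.

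Another set of dense regions lay in introns of genes. In Kcnb2, a voltage-gated potassium channel subunit (chromosome 1, 15470265 to 15470775), the levels were 8.78 and 5.08 RPM in WT, 12.3 and 7.93 RPM in FAD and 8.46 and 3.82 RPM in FAD-BIX. Smoc1, a secreted matricellular protein (chromosome 12, 81159892 to 81160281), had 8.17 and 3.8 RPM in WT, 10.4 and 7.26 RPM in FAD and 7.97 and 4.18 RPM in FAD-BIX. All 3 groups overlapped at both genes.

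Ephb1, a receptor for B-type ephrins, held a dense region of its own (chromosome 9, 102127680 to 102127991), which also covered n-R5s88, a pseudogene of 5S ribosomal RNA, with its centre 52 bp from the nearest gene start. The levels were 9.64 and 3.61 RPM in WT, 9.30 and 6.64 RPM in FAD and 7.09 and 4 RPM in FAD-BIX. As ribosomal RNA genes and their copies are near-identical, reads may come from another copy, and the sources used here do not give how the authors treated such reads. The groups overlapped.

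In Etfb, a subunit of the mitochondrial electron transfer flavoprotein (chromosome 7, 43446954 to 43447194), the region lay 999 bp from a gene start. WT held 6.25 and 3.84 RPM, FAD 9.90 and 7.74 RPM and FAD-BIX 5.62 and 4.82 RPM. FAD was above both other groups without overlap. Within the RefSeq span of Adamtsl1, a secreted ADAMTS-like protein of the extracellular matrix, a region annotated by the authors as between genes (chromosome 4, 85669581 to 85670419) had 5.55 and 4.21 RPM in WT, 8.94 and 7.07 RPM in FAD and 7.43 and 3.23 RPM in FAD-BIX. FAD overlapped FAD-BIX there, but not WT.

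Smaller dense regions were found in introns of Arnt2, a neuronal transcription factor of the bHLH-PAS family, and of Magi2, a postsynaptic scaffold. Arnt2 held 4.70 and 2.26 RPM in WT, 3.17 and 3.32 RPM in FAD and 4.11 and 2.41 RPM in FAD-BIX. At Magi2 the values were 1.88 and 1.77 RPM in WT, 2.93 and 1.83 RPM in FAD and 1.42 and 1.23 RPM in FAD-BIX, below both other groups. Others lay between genes with Clec2m, Mtpn and Meis2 as the nearest named ones, the last a homeobox transcription factor of the developing brain. Near Meis2 the levels were 3.72 and 2.11 RPM in WT, 3.37 and 2.07 RPM in FAD and 3.77 and 2.64 RPM in FAD-BIX, so that the groups could not be separated.

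In the second table, dense regions outside those meeting the rule in both tables included ones in an intron of the predicted gene Gm36264 (chromosome 13, 9057315 to 9057565) and in exons or UTRs of Trpv4. Gm36264 held 12.6 and 7.12 RPM in FAD and 12.3 and 6.46 RPM in FAD-BIX. Trpv4, a calcium-permeable cation channel, had a pair of regions on chromosome 5 (114626603 to 114627149 and 114632993 to 114633411). The first held 8.82 and 2.93 RPM in FAD and 6.60 and 2.50 RPM in FAD-BIX, and the second 6.01 and 1.78 RPM and 3.42 and 1.77 RPM. The groups overlapped at all 3 regions, and the replicates of a group differed more than the groups did.

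**Figure D2:**
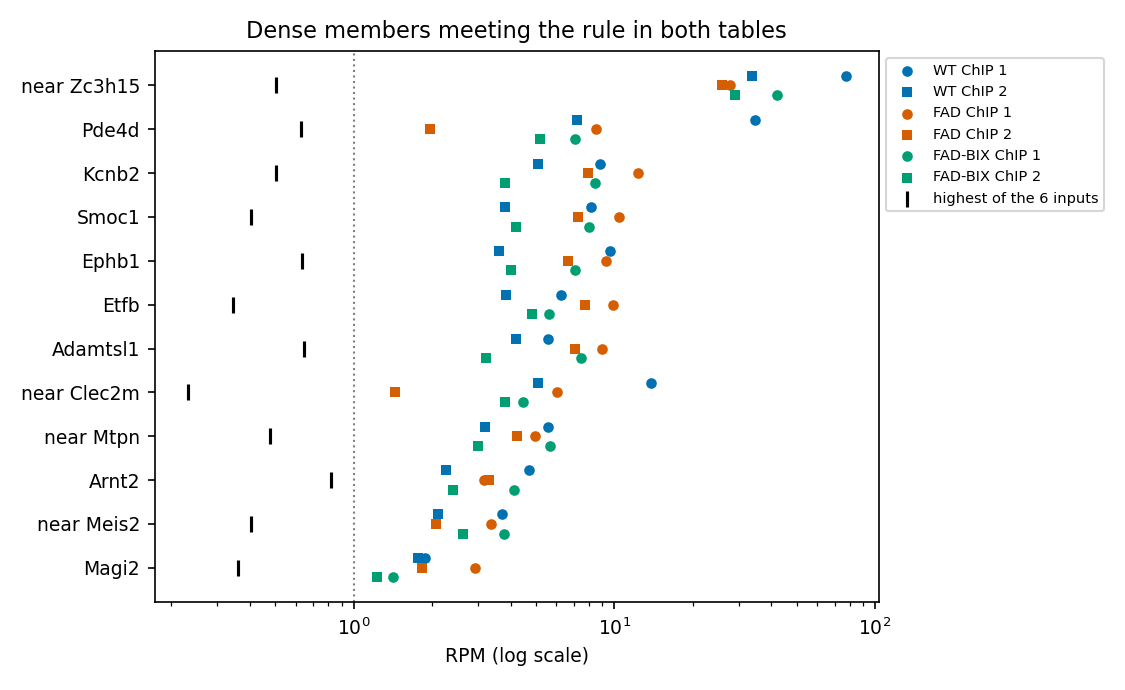
RPM (log scale) in each of the 6 ChIP libraries at the 12 dense regions that met the rule in both tables, named by the gene overlapped or nearest; circles are replicate 1, squares replicate 2, the black tick is the highest of the 6 inputs and the dotted line is 1 RPM. The region near Zc3h15 reaches 77.4 RPM in WT 1, and no input exceeds 0.82 RPM.

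Of the 30 regions that met the rule in both tables, 12 were dense and 18 were not. The latter held between 1.03 and 4.66 RPM in every library and lay between genes or in introns. One lay near the vomeronasal receptor gene Vmn1r77 (2.29 and 2.86 RPM in WT, 2.25 and 4.66 RPM in FAD, 2.4 and 2.41 RPM in FAD-BIX). Near Oxtr, the oxytocin receptor gene, they were 1.18 and 1.5 RPM in WT, 1.72 and 3.51 RPM in FAD and 1.71 and 2.09 RPM in FAD-BIX. An intron of Pcdh15, a protocadherin of hair cell links (chromosome 10, 73931085 to 73931609), held 1.06 and 1.39 RPM in WT, 1.56 and 1.88 RPM in FAD and 1.32 and 1.32 RPM in FAD-BIX. Most of these values lie close to the floor of 1 RPM.

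The rule's thresholds cut through a continuum. The regions just inside the RPM floor had a lowest ChIP level of 1.002 RPM (near Abca13 and Dnajb9) in the first table, and those just outside had 0.9802 RPM (near Immp2l and Fscb). For the ratio, 2.001 near Cntn6 was inside and 1.998 at Gm12332 outside. The mean input was 0.5954 RPM near Scn2a inside and 0.6165 RPM at Gm9597 outside. The widest region inside was 994 bp (near Stim2), and a region of 1000 bp in Gabrb1 was outside. In the second table the corresponding pairs were 1.00 and 0.9782 RPM, 2.004 and 1.997, 0.5964 and 0.6188 RPM, and 997 and 1000 bp. Of the regions outside, 2979 and 4912 failed the RPM floor alone, more than failed any other threshold alone.

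The authors' peak marks, which the rule did not use, seldom covered all libraries. Of the 141 regions of the first table, 54 were marked as called in 1 library, 52 in 2, 34 in 3 and 1 in all 4. In the second table the numbers were 82, 120, 57 and 9 of 268. Over all autosomal regions under 1000 bp, 31731 of 33317 and 40378 of 43019 were marked in 1 library. A call depends on the same reads as the level, so these counts are not independent of the rule. FAD 2 had the most marks, at 75.9% and 74.6% of the chosen regions, but it also marked 64.4% and 50% of all. At 500 bp or more these shares were 82.5% and 79.4% of the chosen regions and 82.3% and 69.6% of all, so that in the first table the share was near the background. The densest region, near Zc3h15, was marked in FAD 2 alone in both tables, although WT 1 held 77.4 RPM there. The dense regions were marked in 1 library in 13 of 17 and 16 of 25 cases.

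**Figure D3:**
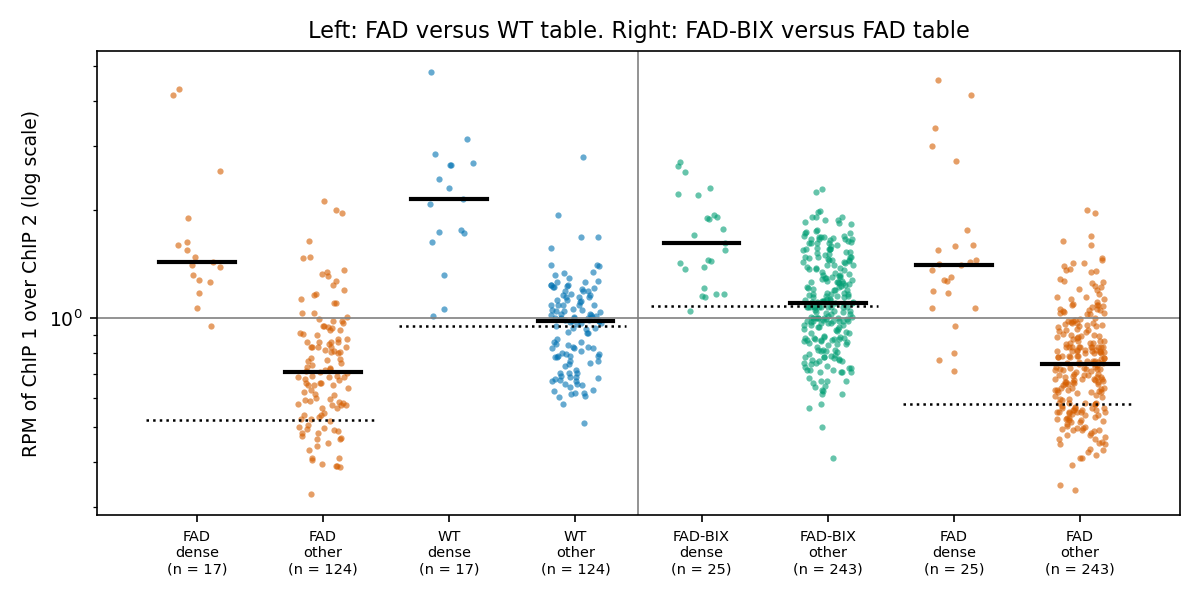
RPM of ChIP 1 over ChIP 2 of the same group (log scale) at each dense and other chosen region; black bars are medians, dotted lines the medians of all autosomal regions under 1000 bp, and the grey line equal levels. Dense regions have medians of 1.40 to 2.15, while the other regions have medians of 0.71 to 1.10.

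The replicates of a group differed in a way that went with density. That density is itself the mean of these libraries per kb, so a high replicate 1 can make a region dense. At dense regions, ChIP 1 was above ChIP 2 in 17 of 17 regions in WT, with a median ratio of 2.15, and in 16 of 17 in FAD, with a median of 1.43. For FAD-BIX it was higher in 25 of 25 with a median of 1.61, and for FAD in that table in 21 of 25 with a median of 1.40. At the other chosen regions the medians were 0.982 in WT, 0.71 in FAD and 1.10 in FAD-BIX, with 0.746 for FAD in the second table. Over all regions the medians were 0.95, 0.521, 1.08 and 0.579, and ChIP 1 was higher at 46.8%, 20.5%, 51.8% and 25.2% of them. Width went with density. At the 21 chosen regions under 500 bp of the first table, ChIP 1 was higher at 21 in WT and at 14 in FAD. Over all regions under 500 bp it was higher at 47.8% and 22.1%. In the second table it was higher at 37 of 45 such chosen regions in FAD-BIX and at 26 in FAD, against 52% and 26.7% of all. Other regions of the same density were not compared. In FAD, ChIP 1 was therefore higher at the dense regions and lower elsewhere. The library numbers are names from the labels, and the labels do not say that replicates 1 were processed together.

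The group comparisons asked whether H3K9me2 at these places differed in FAD mice and under the inhibitor. ChIP counts were tested over each whole table with edgeR's quasi-likelihood test, with Benjamini-Hochberg adjustment. All chosen regions passed the filter on low counts. As the rule puts a floor under every library, a region could not be near 0 in either group, which limits how large a difference can be. The libraries also met the floors unevenly, FAD 2 at 50% of regions but WT at 6.43% and 7.2%. In the second table FAD 2 met them at 40.2% and FAD-BIX at 12.1% and 11.2%. The library labelled FAD 1 met them at 8.18% and 6.8%. The rule thus selected unequally on the groups, and differences over the chosen regions are not independent of it. The FAD libraries are shared by both comparisons, so a low or high FAD value moves them in opposite directions.

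For FAD against WT, 0 of 141 chosen regions passed an adjusted p of 0.05 in edgeR, and 0% of all 27778 regions tested did. At an unadjusted p under 0.05, 6 chosen regions (4.26%) were lower in FAD and 0 were higher, next to 4.97% and 0.918% of all regions. DESeq2 gave 0 at the adjusted threshold, and 1 lower and 0 higher at the unadjusted one. The median log2 difference was -0.24 over the chosen regions and 0.01 over all. The difference was below 0 at 111 of 141 chosen regions. The share below 0 over all regions is not given here, so this count has no background. With library totals in place of TMM scaling the median turned to 0.34, next to 0.62 over all regions, so its sign depends on the scaling. RPM of the groups did not overlap with FAD higher at 45 regions (31.9%, next to 29.8% of all) and with FAD lower at 9 (6.38%, next to 6.98%). These shares are near the background.

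The regions with an unadjusted p under 0.05 included those near Zc3h15, in Gm34181, Pde4d and Mrc2, and on chromosome 7 at 94008972 to 94009938, nearest to Fam181b. Of these, all but the last were dense. The Mrc2 intron had the smallest p, with a log2 difference of -2.23 ± 0.74 (SE) and an adjusted p of 0.832 in edgeR, from 225 and 77 reads in WT and 56 and 24 in FAD. Gm34181 differed by -2.27 ± 0.76 from 1104 and 419 reads in WT and 285 and 92 in FAD. At the Zc3h15 region the difference was -1.54 ± 0.54, from 1893 and 894 reads against 689 and 539, but the ratio over input in limma gave 0.64. In that ratio the FAD 2 input was 0.066 RPM, against 0.348 RPM in the input labelled FAD 1 and 0.505 and 0.404 RPM in WT. At Mrc2, Gm34181 and the Zc3h15 region, WT 1 held over 2 times the reads of WT 2. Without WT 1 the differences were -1.08 at Mrc2, -1.23 at Gm34181 and -0.75 at the Zc3h15 region.

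Leaving out the library labelled FAD 1 changed this count. Then 6 of 141 regions passed as lower in FAD, with adjusted p from 2.47e-06 to 0.0256 in edgeR, among 118 lower and 1 higher over the table. They included Pde4d (log2 -4.56 ± 0.74), Gm34181 (-3.89 ± 0.74), the region near Clec2m (-3.86 ± 0.65), Mrc2 (-3.49 ± 0.62) and Rasgrf2 (-2.41 ± 0.60), an exchange factor for Ras and Rac. This fit rests on the single library FAD 2, whose spread is assumed to be that of WT. With library totals as scaling and the same library left out, 0 of the 141 passed (smallest adjusted p 0.086). Leaving out any other library gave 0 with either scaling. At an unadjusted p under 0.05 the count of 6 lower regions became 23 without the library labelled FAD 1, 3 without FAD 2, 1 without WT 1 and 7 without WT 2. The counts over all regions moved too, to 3138 of 32835, 543 of 30275, 1541 of 32081 and 2682 of 32690 in the same order.

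Among the regions with the smallest p in the other direction, none had an unadjusted p under 0.05. An intron of Kcnh8, a potassium channel, had a log2 difference of 0.42 ± 0.47, with 1.31 and 1.13 RPM in WT and 2.25 and 2.36 RPM in FAD. Near Oxtr it was 0.33 ± 0.42. Stag1, a cohesin subunit gene, had 0.34 ± 0.47 in an intron, with 1.23 and 1.05 RPM in WT and 1.96 and 2.12 RPM in FAD. The RPM groups did not overlap at these regions, but with TMM scaling the differences were smaller than their SE. With library totals they were 0.93 at Kcnh8, 0.97 near Oxtr and 0.86 at Stag1, next to a median of 0.62 over all regions. With that scaling too, 0 chosen regions were higher at an unadjusted p under 0.05 in edgeR.

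**Figure D4:**
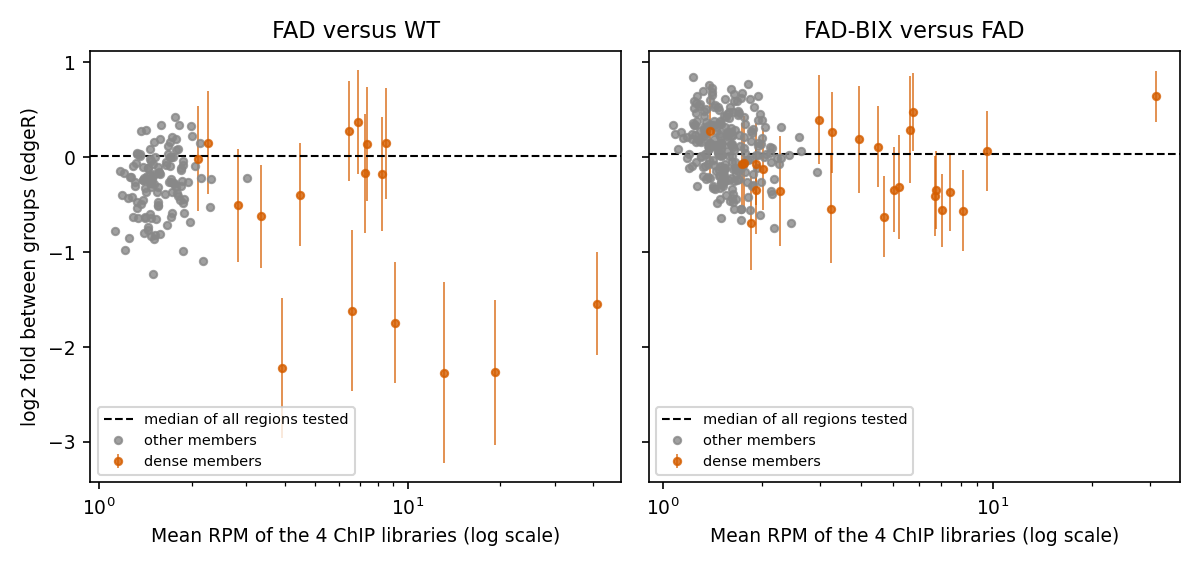
log2 difference between the groups from edgeR against the mean RPM of the 4 ChIP libraries (log scale) for each chosen region; bars on the dense regions (orange) are SE and the dashed line is the median of all regions tested. In FAD versus WT the dense regions spread from -2.27 to 0.37, and in FAD-BIX versus FAD from -0.69 to 0.64.

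For FAD-BIX against FAD, 0 of 268 chosen regions passed in edgeR, and 0% of all 31055 regions tested. At an unadjusted p under 0.05, 1 region (0.373%) was higher and 0 were lower, next to 3.93% and 1.18% of all regions, and DESeq2 gave the same counts of 1 and 0. The median log2 difference was 0.10 over the chosen regions and 0.03 over all, and it turned to -0.22 with library totals, where that of all regions was -0.28. RPM of the groups did not overlap with FAD-BIX higher at 8 regions (2.99%) and lower at 63 (23.5%). Over all regions these shares were 12.9% and 19%.

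The single region was the one near Zc3h15, with a log2 difference of 0.64 ± 0.27 (adjusted p 0.897 in edgeR). It came from 689 and 539 reads in FAD and 860 and 639 in FAD-BIX, and both FAD-BIX libraries were higher. The ratio over input in limma gave -0.82 for this region, where the FAD 2 input was 0.066 RPM. Without the library labelled FAD 1, it passed as higher (1.13 ± 0.18, adjusted p 2.29e-06 in edgeR), as did Pde4d (2.44 ± 0.44, adjusted p 0.000113) and the region near Clec2m (2.22 ± 0.50, adjusted p 0.0196). Over the whole table that fit called 25 higher and 1 lower of 42390 regions. With library totals and that library left out, 0 passed (smallest adjusted p 0.154). These 3 regions also held fewer reads in FAD 2 than in WT, and both differences use the same FAD 2 library.

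Among the regions with the next smallest p-values, none had an unadjusted p under 0.05. Near Rnf144a, an E3 ubiquitin ligase gene, the difference was 0.77 ± 0.43, with 1.08 and 2.07 RPM in FAD and 2.35 and 1.77 RPM in FAD-BIX. Near Luzp2 (chromosome 7, 53877352) it was 0.85 ± 0.49, with 1.00 and 1.01 RPM in FAD and 1.22 and 1.73 RPM in FAD-BIX. In an intron of the zinc-finger gene Zfp763 it was -0.75 ± 0.45, with 2.93 and 2.84 RPM in FAD and 1.66 and 1.27 RPM in FAD-BIX. The Etfb intron gave -0.56 ± 0.38, and the predicted gene Gm34907 (chromosome 14, 103464270 to 103464933) gave -0.63 ± 0.43 with 6.90 and 5.05 RPM in FAD and 4.16 and 2.68 RPM in FAD-BIX. Some of these directions did not hold. With the ratio over input in limma, Gm34907 turned to 1.75 and the Luzp2 region to -0.17. Without the library labelled FAD 1, Etfb and Gm34907 turned to 0.10 each with TMM scaling, but were -0.57 each with library totals. With that library left out and library totals, Rnf144a turned to -0.01.

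The level in libraries that the rule did not use was a check on whether enrichment at these regions is shared. Matching used a reciprocal overlap of 50%, so a matched region had to be in the other table. FAD-BIX libraries could be read at 112 of the 141 regions of the first table. Both met the same floors of RPM and ratio at 40 (35.7%), against 516 of 24332 matched regions in all (2.12%). Median levels were 1.27 and 1.27 RPM at the chosen regions and 0.538 and 0.5 RPM over all. WT libraries could be read at 209 of the 268 regions of the second table and met the floors at 37 (17.7%), against 266 of 24296 (1.09%). The medians were 0.898 and 1.05 RPM, and 0.449 and 0.489 RPM over all.

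Width and density both moved with this share. Among matched regions of 500 bp or more, FAD-BIX met the floors at 30 of 97 chosen regions (30.9%) and at 298 of 3688 others (8.08%), and WT at 25 of 176 (14.2%) and at 146 of 3812 (3.83%). The dense regions met them in FAD-BIX at 12 of 13 and in WT at 13 of 17. The share over other matched regions of that density is not given here, so these counts have no background and are a description only. The exception in FAD-BIX was near Col12a1, with 2.4 and 0.546 RPM. In WT the exceptions were both Trpv4 regions, with 3.31 and 1.99 RPM and with 1.35 and 0.564 RPM, and those near Vmn1r2 and Samd9l. The remaining regions met them at 28 of 99 in FAD-BIX and 24 of 192 in WT, so most of them did not meet the floors in the third group.

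**Figure D5:**
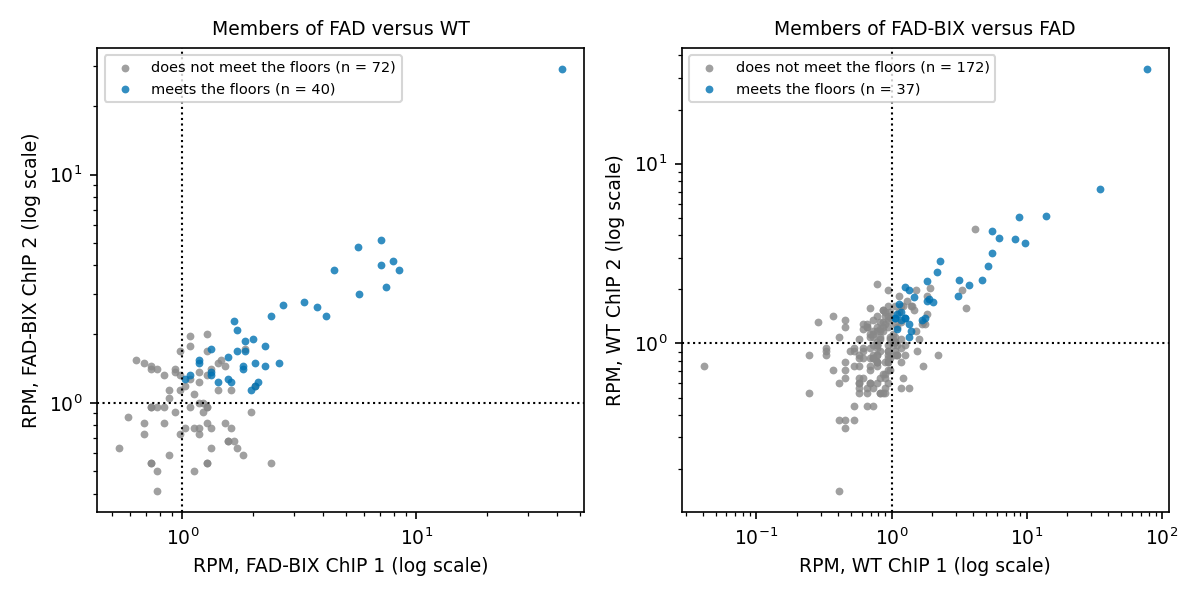
RPM in ChIP 1 and ChIP 2 (log scales) of the group the rule did not use, FAD-BIX for the regions of the first table and WT for those of the second; dotted lines are 1 RPM, and blue points meet the RPM and ratio floors. Blue points number 40 of 112 and 37 of 209.

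Most chosen regions were centred between genes, as were most regions of the tables. The shares in exons or UTRs, near gene starts and over pseudogenes were higher than over all regions, which are narrower. Of the regions of the first table, 71.6% were centred between genes, 22.7% in introns and 5.67% in exons or UTRs, against 72.2%, 24.2% and 3.63% of all. In the second the shares were 69.0%, 20.1% and 10.8%, against 71.8%, 24.5% and 3.65%. Within 2 kb of a gene start lay 10.6% and 12.7%, against 5.9% and 5.74% of all. RefSeq pseudogenes were overlapped by 10 of 141 (7.09%) and 27 of 268 (10.1%), against 2.98% and 2.76% of all regions. Among regions of 500 bp or more the pseudogene shares were 6.67% and 11.2%, against 5.06% and 4.6%. At that width in the first table, 6.67% were centred in exons or UTRs, against 5.55% of all. Within 2 kb of a gene start lay 10% at that width, against 7.96%. In the first table the differences were thus smaller than over all widths. These are descriptions with no test.

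Most exon-centred regions overlapped pseudogenes, 6 of 8 in the first table and 21 of 29 in the second, against 35.1% and 33.8% of all exon-centred regions. Examples are Gm7784 on chromosome 1, with a mean of 1.71 RPM over 4 libraries, and Gm6458 on chromosome 8, with 2.03 RPM. Others lay within coding genes, such as Gm11873 in Nkain3, Gm12717 in Dab1, a reelin adaptor gene, and Gm17068 in Gnaq, a G-protein subunit gene. Pseudogenes share sequence with their parent genes, so the reads may come from either, and their placement is uncertain. Exon regions that were not in pseudogenes included both Trpv4 regions and a pair in Flg2, a protein of the cornified skin layer. The wider of these (chromosome 3, 93202667 to 93203608) held 2.41 and 2.79 RPM in FAD and 1.81 and 1.55 RPM in FAD-BIX, and it was marked as called in all 4 libraries.

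Chromosome ends were also represented. In the first 5 Mb of a chromosome, next to the centromere in the mouse, lay 13 of 268 regions of the second table (4.85%) and 4 of 141 of the first (2.84%), against 1.59% and 1.82% of all. The densest group was on chromosome 3 between 3003129 and 3032661, with 5 chosen regions among 14 in the table, and Hnf4g, a nuclear receptor gene, as the nearest named gene. One of these (3015265 to 3016159) held 1.92 and 2.64 RPM in FAD and 1.32 and 1.05 RPM in FAD-BIX, and did not overlap between groups. Repeats flank mouse centromeres, and the placement of reads there is uncertain.

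The gene lists considered for this tissue and mark held few of the chosen regions. Over all regions, the chosen share was 0.423% in the first table and 0.623% in the second, and with 0 to 9 chosen regions a list the shares below are imprecise. Among 290 and 374 regions of ionotropic glutamate receptor genes, 1 and 2 were chosen. Near Grik2, a kainate receptor subunit, a region of the first table held 1.02 and 1.02 RPM in WT and 1.72 and 1.73 RPM in FAD, and an intron region of the second held 1.48 and 2.26 RPM in FAD and 1.08 and 1.14 RPM in FAD-BIX. Grid1, a delta glutamate receptor, had 1.2 and 1.54 RPM in FAD and 1.12 and 1.45 RPM in FAD-BIX. None of these passed the test.

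Synaptic adhesion and scaffold genes gave 2 of 835 regions in the first table (0.24%, near Cntnap5c and Ptprd) and 4 of 1159 in the second (0.345%, Cadm2, Cntnap5c, Dlg2 and Opcml). Dlg2, a postsynaptic scaffold, held 1.16 and 2.12 RPM in FAD and 2.35 and 1.18 RPM in FAD-BIX, with the groups overlapping. Olfactory and vomeronasal receptor genes, silent in most cortical cells, gave 3 of 1063 and 9 of 1259. Zinc-finger genes gave 2 of 499 and 4 of 613.

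Tdrd1, a germline gene of the piRNA pathway, was the only chosen germline gene (1 of 42 regions, 2.38%, first table), with 1.51 and 1.13 RPM in WT and 1.16 and 2.21 RPM in FAD. The imprinted list gave 1 of 81 regions in the second table (1.23%), near Gnas, with 1.92 and 1.88 RPM in FAD and 2.54 and 1.64 RPM in FAD-BIX. Genes of the H3K9 methylation machinery (13 and 20 regions) and small RNA genes (12 and 20 regions) had none, nor had the imprinted list in the first table or the germline list in the second.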

How the data were processed

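H3K9me2 ChIP and input libraries of 6 mice were used, 12 libraries in all. Reads were 50 bp single-end or 150 bp paired-end, after cross-linking in 1% formaldehyde for 12 min, per the labels' protocols. The submitters' processing notes name BWA 0.7.12, MACS2 2.1.0, Trimmomatic and FastQC, and the build mm9. However, 96.5% and 96.3% of genes matched by symbol (2277 and 2701) overlapped the RefSeq gene of that name in GRCm38.p6, so coordinates are given as GRCm38. The sources used here do not say whether the first base counts as 0 or 1.

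Per the file headers, the deposited counts are reads per region and library. The deposited RPM equal the count plus 1, scaled to the library, by their values. The deposited fold enrichment is the ratio of ChIP RPM to input RPM of the same mouse (largest relative deviation 5.11e-15). The authors' deposited log2 fold changes and p-values were not used for calls. Regions were called per library and joined, so presence in a table depends on the reads compared.

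Rows were reduced from 34413 and 44428 to 33787 and 43680 regions. For the group comparisons, edgeR 4.0.16 under R 4.3.3 was run on the ChIP counts (quasi-likelihood test, TMM, default filter, no replicate block), adjusted over all regions tested, after tests on simulated data. DESeq2 1.42.0 and limma 3.58.1 were alternatives, as were other scalings, filters, thresholds, overlaps and libraries left out. The SE and the p-values both rest on the spread of 2 mice a group, moderated by variation shared across regions. Where a library was left out, 1 group had a single mouse and no spread of its own. A region is named by the gene it overlaps, otherwise by the nearest protein-coding gene in RefSeq with an established name, by distance to the gene rather than to its start as first planned. Distances to a gene start are those of the authors, and may be to another gene.

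Regions named were the 8 with the highest RPM, the 3 with the highest lowest ratio, 4 of the smallest p per direction, up to 6 in exons or near gene starts, up to 10 meeting the rule in both tables, up to 2 per gene list, and 2 inside each threshold, of which a selection is given. Outside this rule, and after their values were seen, Col12a1, Dab1, Fam181b, Gm39637, Gm6458, Gm7784, Gnaq, Magi2, Meis2, Nkain3, Opcml, Pcdh15, Rasgrf2, Samd9l, Spag17, Thy1 and the regions just outside each threshold were added. The line at 5 RPM per kb and the rule without FAD 1 were also chosen after seeing the data. The members and lists were chosen with earlier results of these data known. Base composition of the regions was not analysed here. Results at 1 gene are not reported here.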

Additional observations from a re-analysis of the deposited data

How the results depend on the processing

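The number of chosen regions followed the thresholds. In FAD versus WT, in place of 141, there were 23 with RPM of at least 1.5, 338 with at least 0.8, 38 with a ratio of at least 3, 216 with at least 1.5, 81 with a mean input under 0.4 RPM, 21 under 500 bp wide and 249 without FAD replicate 1, the last chosen after seeing the data. In FAD-BIX versus FAD, in place of 268, the same settings gave 41, 636, 100, 404, 193, 45 and 578. The other thresholds gave 140 to 163 and up to 314. The share of regions meeting the floors in the third group was 32.1% and 39.7% (in place of 35.7%) and 16.6% and 22.7% (in place of 17.7%) with any overlap and 80% overlap.

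The count of chosen regions passing the adjusted threshold was 0 in each comparison and 0 under all alternatives but 1: with a library left out it ranged from 0 to 6 in FAD versus WT and from 0 to 3 in FAD-BIX versus FAD, the highest without FAD replicate 1. With the replicate block the count was 0 in both, with smallest adjusted p of 0.711 and 0.958, and the median log2 differences were -0.25 and 0.10. Deviations of same-numbered libraries from their group means correlated at 0.053 over 29288 regions and at -0.038 over 33663, and at 0.435 and 0.206 over the chosen regions. The labels do not say that numbers pair the mice.

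Single directions reversed as follows. With the ratio over input in limma, the region near Zc3h15 turned to 0.64 in FAD versus WT and to -0.82 in FAD-BIX versus FAD. At this region the FAD 2 input in that ratio was 0.066 RPM. With the same ratio, the region near Luzp2 turned to -0.17, that near Hnf4g (3015265) to 0.78 and Gm34907 to 1.75. Without FAD replicate 1, Kcnh8 turned to -0.11, Stag1 to -0.17 and the region near Hnf4g (3007812) to -0.36 in FAD versus WT, and Etfb and Gm34907 to 0.10 each in FAD-BIX versus FAD. Without FAD replicate 2 these were 0.85, 0.75, 0.84, -1.16 and -1.26. These values are with TMM scaling. With library totals and FAD replicate 1 left out, the same regions kept their directions, at 0.97, 0.91, 0.71, -0.57 and -0.57 in the same order. Rnf144a turned to -0.01 without FAD replicate 1 and with library totals. The cause was not tested. Depth limits the regions that were not dense, where the lowest library held 20 reads.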
